A study of Mus musculus with 17 samples.

Results

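Neurotrophins are secreted growth factors of the nervous system, made as precursors, cut to their mature form and released by neurons. BDNF, encoded by Bdnf, and NT-3, encoded by Ntf3, signal through the receptor tyrosine kinases TrkB and TrkC, encoded by Ntrk2 and Ntrk3. The p75 receptor, encoded by Ngfr, binds every neurotrophin, and sortilin, encoded by Sort1, sorts pro-BDNF inside the cell and binds precursors together with p75. In the hippocampus Bdnf is made chiefly by excitatory neurons and is a classic gene of neuronal activity, raised by seizures from promoters that bind CREB and the activity-dependent factor Npas4.

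The 6 genes examined here were these ligands and receptors, found by their Ensembl identifiers in a table of 55471 genes, where 6 of 6 had a row. The counts came from the hippocampi of individual male C57BL/6 mice aged 3 to 6 months, with 1 library per mouse and 17 libraries in all. CBP-ifKO mice carry floxed Crebbp and a tamoxifen-inducible creERT2 driven by the Camk2a promoter, and after 5 administrations of tamoxifen their forebrain excitatory neurons express a truncated CBP without acetyltransferase activity. Glia, interneurons and other hippocampal cells keep CBP. Controls were littermates that also received tamoxifen and, by the study's methods, lack creERT2, although their labels name Camk2a_creERT2. Mice of the Sal groups were never kindled and were given saline. The PTZ0 and PTZ45 groups received the kindling schedule, repeated doses of 45 mg/kg pentylenetetrazole (PTZ), which provokes seizures by blocking inhibitory GABA-A receptors. The study reports that all controls came to seize under this schedule, whereas no CBP-ifKO mouse reached the stage of progressive seizures. For their final injection PTZ0 mice were given saline and PTZ45 mice 45 mg/kg of PTZ. Tissue was taken 45 min after the last injection. Each group had 3 libraries, except Control PTZ45 with 2.

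Libraries held 5831992 to 18735643 counts, the shallowest being CBP-ifKO Sal replicate 2. Crebbp, the targeted gene, stood at 1824 to 2429 normalized counts in the 8 control libraries and at 1061 to 1337 in the 9 CBP-ifKO libraries, without overlap. Normalized counts here are counts divided by DESeq2 size factors over all 17 libraries. Markers of choroid plexus, a tissue that adjoins the hippocampus, summed to 10750 to 44030 normalized counts in 5 libraries (Control Sal and PTZ0 replicate 2, CBP-ifKO Sal replicate 1, PTZ0 replicate 3 and PTZ45 replicate 2) and to 435 to 1136 in the other 12. Sequencing lane followed the groups. Control Sal and PTZ0 were run in lane 3, CBP-ifKO Sal and Control PTZ45 in lane 4, and CBP-ifKO PTZ0 and PTZ45 in lane 5, so within a treatment genotype and lane cannot be told apart. In whole tissue, fewer cells of a type and less RNA per cell cannot be told apart either.

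Promoter sequence is shown because Bdnf had the largest genotype difference of the members in the comparisons of all libraries, within each treatment and across them, and because factors known to act on its promoters are described further on. Bdnf lies on the forward strand of chromosome 2 (GRCm38, 109674700 to 109727007) and RefSeq gives 7 starts for it on GRCm38.p6. The 250 bases before each start were searched on both strands for the short CRE TGACG, the letters read by CREB, for TCGTG, the core read by Npas4, for the full CRE TGACGTCA, which contains the short one, and for the E-box CACGTG. The short CRE was found before start 3 only, 35 bases upstream and read as CGTCA. The Npas4 core was found before start 1 (131 and 176 bases upstream) and start 3 (12 and 88 bases upstream). Printed 5′ to 3′ with these letters in capitals (CGTCA for the short CRE, TCGTG or its complement CACGA for the Npas4 core), the windows are chr2:109692186-109692435 (start 3) and chr2:109674450-109674699 (start 1).
Bdnf start 3: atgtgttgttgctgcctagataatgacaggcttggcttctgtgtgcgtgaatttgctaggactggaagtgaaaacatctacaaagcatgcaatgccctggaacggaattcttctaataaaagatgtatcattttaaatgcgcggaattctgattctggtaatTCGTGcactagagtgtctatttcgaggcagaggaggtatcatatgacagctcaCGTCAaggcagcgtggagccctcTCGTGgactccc
Bdnf start 1: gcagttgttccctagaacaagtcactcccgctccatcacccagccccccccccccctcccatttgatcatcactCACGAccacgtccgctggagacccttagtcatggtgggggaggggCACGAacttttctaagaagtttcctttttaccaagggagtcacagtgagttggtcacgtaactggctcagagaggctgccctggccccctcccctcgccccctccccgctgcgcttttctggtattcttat
Of 32851 such windows of mouse genes, 17.8% hold TGACG, 13.3% TCGTG, 6.02% CACGTG and 1.55% TGACGTCA on either strand, so these letters are common. Neither TGACGTCA nor CACGTG was found before any of the 7 Bdnf starts. Counts were summed over the whole gene, so they do not tell which start was used. Of the other members, RefSeq windows were matched for Ntf3 (2 starts), Ntrk2 and Ngfr (1 each). The first Ntf3 start held CACGTG 231 bases upstream, and no other match was found.

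Levels between genes were compared per kilobase of exon. In Control Sal, Sort1 was the highest of the ligands, receptors and sortilin relatives examined, at 1257 ± 52.0 normalized counts per kilobase (SD, n = 3). Ntrk2 followed among the members at 391.9 ± 14.4, then Ntrk3 at 209.7 ± 15.8, Bdnf at 88.1 ± 1.81, Ntf3 at 37.6 ± 6.55 and Ngfr at 4.69 ± 0.60. The library ranges of these 6 genes did not overlap. Of the members, Ntf3 alone had a range that met that of its next lower neighbour, Sorcs1 (30.3 ± 2.02). In CBP-ifKO Sal, Bdnf at 52.7 ± 3.35 came after Sorcs2 (70.9 ± 7.55) rather than before it, and Ntf3 at 24.6 ± 2.48 came after Sorcs1 (26.9 ± 1.18), with overlapping ranges. The ligand gene Ntf5 had at most 4 counts in any library. Gene-level counts do not separate full-length from truncated TrkB or TrkC, and the exon lengths used here (19292 bases for Ntrk2 and 30170 for Ntrk3) add up every isoform.

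**Figure D1:**
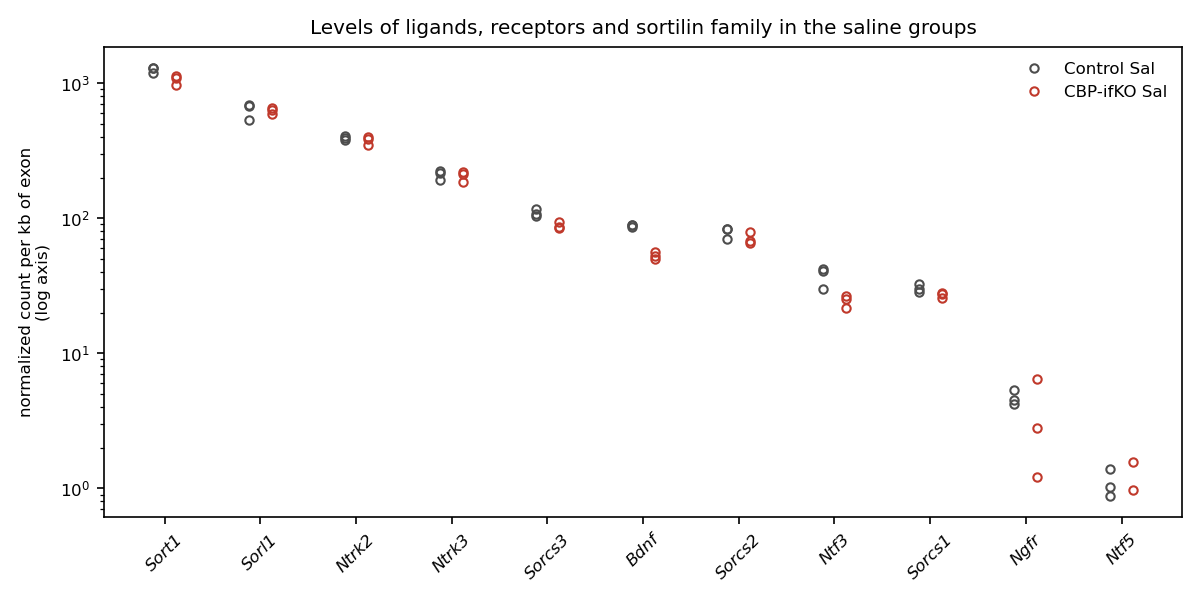
Normalized counts per kilobase of exon (log axis) for the members, Ntf5 and the sortilin relatives in the 3 Control Sal (grey) and 3 CBP-ifKO Sal (red) libraries, 1 point per library. Sort1 is highest and Ntf5 lowest, and the Bdnf points of CBP-ifKO lie below those of controls. The CBP-ifKO library in which Ntf5 was 0 is not drawn for that gene.

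The first question of the design was whether loss of CBP activity changes these transcripts before any acute stimulus. Among the ligands, the lowest control value of Bdnf (535) exceeded the highest CBP-ifKO value (398). In Control Sal it measured 557, 550 and 535 normalized counts, and in CBP-ifKO Sal 324, 309 and 350. In Control PTZ0 it measured 570, 600 and 602, against 329, 352 and 297 in CBP-ifKO PTZ0. In Control PTZ45 the 2 libraries held 738 and 678, against 398, 394 and 358 in CBP-ifKO PTZ45. The CBP-ifKO mean was thus 59.9% ± 3.80 (SD, n = 3) of the Control mean in Sal, 55.2% ± 4.68 in PTZ0 and 54.2% ± 3.09 in PTZ45.

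The log2 fold change of Bdnf, CBP-ifKO minus Control, was -0.73 (SE 0.12) in Sal, -0.86 (SE 0.11) in PTZ0 and -0.88 (SE 0.13) in PTZ45, with DESeq2 adjusted p of 1.22e-07, 3.33e-13 and 1.93e-09. Over all treatments it was -0.82 (SE 0.05, adjusted p = 1.4e-54). A transcript was called when the adjusted p of the DESeq2 Wald test, over all genes tested, was under 0.05, and by that rule 1.77% of genes were called lower in Sal, 5.25% in PTZ0, 2.82% in PTZ45 and 11.5% over all treatments. Of all genes tested over the 17 libraries, 2.16% were lower in CBP-ifKO with no overlap between the 8 control and 9 CBP-ifKO libraries. Bdnf stayed called in every alternative analysis, with log2 fold changes between -0.94 and -0.70. In the fit with lane as a term, which treats genotype and treatment effects as additive, it was -0.75 (adjusted p = 0.0016). Lane 4 alone held both genotypes, with 309 to 350 in CBP-ifKO Sal and 678 to 738 in Control PTZ45, groups that differ in treatment too. The part of the Bdnf exons shared with the antisense gene Gm45346 is 896 bases, and Gm45346 itself had 50 counts over the 17 libraries.

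**Figure D2:**
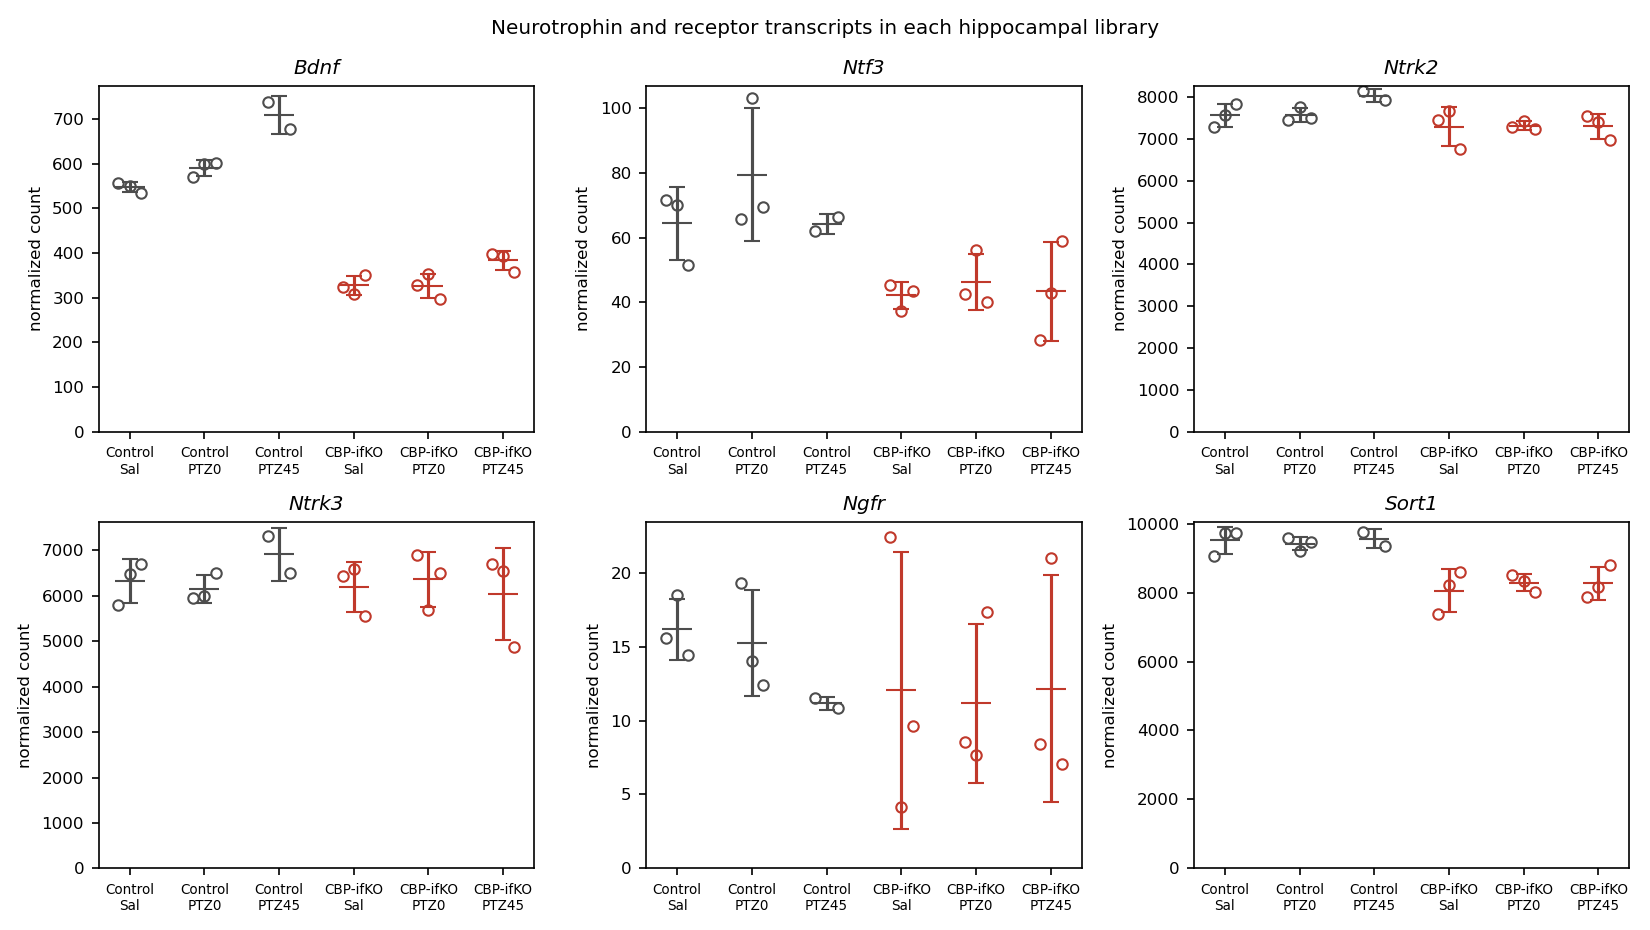
Normalized counts (linear axes from 0) of the 6 genes in each library, by group, with points for libraries and bars for the group mean and SD. Bdnf separates the genotypes in every treatment, Sort1 by a smaller margin, whereas the Ntrk3 and Ngfr points of the genotypes overlap.

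Ntf3, the ligand of TrkC, was measured at far lower counts, 18 to 92 raw counts per library. In Control Sal it stood at 71.7, 70.2 and 51.5 normalized counts, and in CBP-ifKO Sal at 45.5, 37.4 and 43.6. In PTZ0 controls held 65.8, 103 and 69.5, and CBP-ifKO 42.6, 56.3 and 40.2. In PTZ45 controls held 61.9 and 66.3, and CBP-ifKO 28.4, 43.0 and 59.0. The genotypes did not overlap within any treatment, as was also so for 11.1%, 15.2% and 18.3% of genes, lower in CBP-ifKO, in Sal, PTZ0 and PTZ45. None of the 3 single-treatment tests called it (log2 fold changes -0.59, -0.77 and -0.56; DESeq2 adjusted p = 0.41, 0.063 and 0.64). The Ntf3 value in PTZ45 was -0.33 without CBP-ifKO replicate 1 and -0.87 under the replicate block. Across the 3 treatments Ntf3 was called lower (-0.65, SE 0.14, adjusted p = 1.4e-04), and with lane as a term it was not called (-0.39, adjusted p = 0.9993).

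Markers of hippocampal cell types were set beside the members over all treatments, where 19.3% of all genes tested were called and 11.5% were called lower. Of 6 markers of dentate granule cells 5 were called, in both directions. C1ql2 (log2 fold change -1.66), Tdo2 (-0.96) and Stxbp6 (-0.18) were lower in CBP-ifKO, and Lct (0.75) and the transcription factor gene Prox1 (0.26) were higher. The summed level of the 6 markers was 3587 to 4919 in controls and 3799 to 4946 in CBP-ifKO. Markers of CA1 pyramidal cells, which also express Bdnf, summed to 4118 to 4852 in controls and 2827 to 3818 in CBP-ifKO, with 4 of 5 called lower, Wfs1 among them (-1.11). Pan-excitatory markers overlapped between the genotypes (28010 to 36420 and 31060 to 40560), with 1 of 4 called lower. CA2 markers summed to 1332 to 1634 in controls and 771 to 1029 in CBP-ifKO, with 2 of 4 called lower and 1 higher. Markers of oligodendrocyte precursors summed to 1604 to 1790 and 1282 to 1477, with 3 of 3 called lower. Astrocyte markers (3 of 6 called lower; 14700 to 16060 and 13080 to 15890) and interneuron markers (2 of 6; 6438 to 6799 and 5752 to 6484) overlapped in their sums, as did those of mural cells, meningeal fibroblasts and CA3 cells, each with 1 called lower. No marker was called for oligodendrocytes, microglia or endothelium, nor for choroid plexus, where 1 of 5 had an adjusted p. No marker of these lists was at 0 in any group. The lists with 1 called marker (20% to 25% of their genes) were near the share of all genes. Genotype followed lane here too, and the part of these cells in the ligand differences was not tested.

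Sort1 showed a smaller difference. Its libraries measured 9058, 9740 and 9739 in Control Sal, 9579, 9218 and 9456 in Control PTZ0, and 9769 and 9366 in Control PTZ45. In CBP-ifKO they measured 7368, 8209 and 8595 in Sal, 8514, 8332 and 8027 in PTZ0, and 7860, 8168 and 8790 in PTZ45. Every CBP-ifKO library was below every control, as was also so for 2.16% of all genes tested. Taking the treatments together, the fall was -0.21 on the log2 scale (SE 0.03, DESeq2 adjusted p = 4.5e-08), to 86.5% of the control mean, and with lane as a term it was -0.27 and not called (adjusted p = 0.49). Within a treatment it was called in PTZ0 (-0.18, SE 0.05, adjusted p = 0.0075) and not in Sal (-0.24, adjusted p = 0.083) or PTZ45 (-0.21, adjusted p = 0.17). The call in PTZ0 ended in edgeR (-0.18, adjusted p = 0.076) and in the fit of all 17 libraries (-0.18, adjusted p = 0.054). It also ended when Control PTZ0 replicate 1, 2 or 3 or CBP-ifKO PTZ0 replicate 3 was left out (-0.20 to -0.16, adjusted p = 0.061 to 0.15). The antisense gene Gm12523 shares 338 bases of Sort1 exon and had 27 counts in all.

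**Figure D3:**
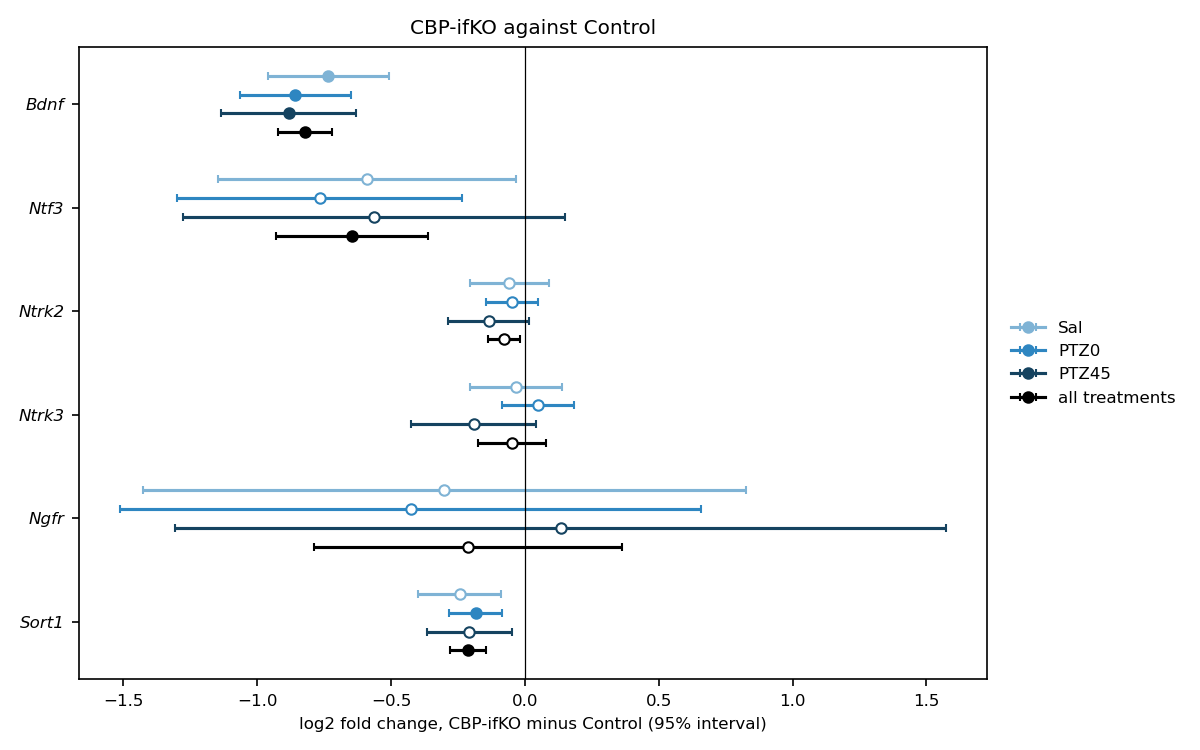
Log2 fold change, CBP-ifKO minus Control, of the 6 genes in Sal, PTZ0, PTZ45 and over all treatments, with 95% intervals. Filled points are called (DESeq2 adjusted p under 0.05) and open points are not. The 4 Bdnf points lie between -0.88 and -0.73, and the Ntrk2 and Ntrk3 points between -0.19 and 0.05, none called.

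The Trk receptors themselves were not called lower. Ntrk2 ranged from 7278 to 8145 normalized counts in the 8 controls, with a median of 7666, and from 6767 to 7661 in the 9 CBP-ifKO libraries, with a median of 7396. Its genotypes overlapped in Sal but not in PTZ0 (7450 to 7761 in Control, 7230 to 7432 in CBP-ifKO) or PTZ45 (7922 to 8145, 6972 to 7540). The same was so for 15.2% and 18.3% of genes, lower in CBP-ifKO, in PTZ0 and PTZ45. Across treatments Ntrk2 differed by -0.08 on the log2 scale (95% interval -0.14 to -0.02, DESeq2 adjusted p = 0.060). It passed the threshold with the GC trend removed (adjusted p = 0.049) and in the fits that left out the first Control Sal library or either of CBP-ifKO Sal replicates 1 and 2 (adjusted p = 0.020 to 0.049). Ntrk3 ranged from 5791 to 7318 in controls, with a median of 6497, and from 4869 to 6895 in CBP-ifKO, with a median of 6508. Its log2 fold change was -0.05 (95% interval -0.18 to 0.08). With lane as a term, the differences were larger, -0.14 for Ntrk2 and -0.27 for Ntrk3, and not called (DESeq2 adjusted p = 0.97 and 0.95). Within PTZ45 the values were -0.14 for Ntrk2 (95% interval -0.29 to 0.02) and -0.19 for Ntrk3 (-0.42 to 0.04). The Ntrk3 value rested on CBP-ifKO PTZ45 replicate 3, the lowest library at 4869, without which it was -0.057, and it was -0.11 without Control PTZ45 replicate 1 and -0.056 under the replicate block.

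Ngfr was close to the limit of these libraries, at 2 to 35 raw counts. In controls it measured 15.6, 18.5 and 14.5 normalized counts in Sal, 19.3, 14.1 and 12.4 in PTZ0, and 11.5 and 10.9 in PTZ45. In CBP-ifKO it measured 22.4, 4.15 and 9.61 in Sal, 8.52, 7.64 and 17.3 in PTZ0, and 8.41, 20.99 and 7.07 in PTZ45. The 3 high CBP-ifKO values, 17.3 to 22.4, belonged to the 3 CBP-ifKO libraries with high choroid plexus markers, and the other 6 held 4.15 to 9.61. Among controls the 2 libraries with high choroid plexus markers held 14.1 and 18.5 and the other 6 held 10.9 to 19.3. The difference across treatments was -0.21 on the log2 scale (95% interval -0.79 to 0.36) with all 17 libraries and -0.83 (SE 0.36, unadjusted p = 0.022, no adjusted p after independent filtering) without those 5 libraries. The part of choroid plexus in the Ngfr values was not tested further.

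The second question was how these genes respond 45 min after PTZ in mice given the kindling schedule, and whether the response differs in CBP-ifKO. Because the study reports no progressive seizures in CBP-ifKO mice, loss of CBP activity and absence of seizures cannot be told apart in these genotype contrasts. Fos, the standard marker of recent activity, stood at 2483 and 2915 normalized counts in Control PTZ45 against 23.7 to 62.4 in the other controls, and at 163 to 288 in CBP-ifKO PTZ45 against 13.4 to 34.0. The Bdnf response was small beside this. In Control the log2 fold change of Bdnf was 0.37 over Sal (SE 0.11, DESeq2 adjusted p = 0.084) and 0.26 over PTZ0 (SE 0.10, adjusted p = 0.33). In CBP-ifKO it was 0.22 over Sal (SE 0.13) and 0.24 over PTZ0 (SE 0.12), with adjusted p of 0.9999 and 1.0. None was called by DESeq2 (unadjusted p = 0.0011, 0.012, 0.092 and 0.055), where 1.17%, 1.25%, 0.294% and 0.0872% of genes were. In Control over Sal, edgeR (adjusted p = 0.049) and the fit of all 17 libraries (adjusted p = 0.015) did call it. The CBP-ifKO comparison of PTZ45 with PTZ0 was made within lane 5. Control PTZ45 was run in lane 4 and the other controls in lane 3. The PTZ response in Control and lane therefore cannot be told apart, nor can they in CBP-ifKO over Sal (lanes 5 and 4).

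Both Control PTZ45 libraries (738 and 678) lay above all 6 other controls (535 to 602), and all 3 CBP-ifKO PTZ45 libraries (358 to 398) above all 6 other CBP-ifKO libraries (297 to 352). Among the 13041 genes averaging 50 normalized counts or more, 12.1% were higher in PTZ45 in this way in Control, 2.15% in CBP-ifKO and 0.79% in both. In Control this sets lane 4 against lane 3, and in CBP-ifKO lane 5 against lanes 4 and 5. A fit over both genotypes with genotype as a term, added after these levels had been seen, gave a Bdnf log2 fold change of 0.29 over Sal (SE 0.07, adjusted p = 0.0031, 4.5% of genes called) and 0.25 over PTZ0 (SE 0.07, adjusted p = 0.021, 1.88% of genes called). With the GC trend of each library removed, Bdnf, whose longest annotated transcript is 40.9% GC, was not called in either (0.22, adjusted p = 0.17, and 0.19, adjusted p = 0.28). Without the 5 libraries with high choroid plexus markers it was not called either (0.29, adjusted p = 0.11, and 0.22, adjusted p = 0.37). The call over PTZ0 also ended in edgeR (adjusted p = 0.057), under the replicate block (adjusted p = 0.10) and when any library other than CBP-ifKO PTZ0 replicates 1 and 2 and CBP-ifKO PTZ45 replicate 3 was left out (8 of 11; adjusted p = 0.054 to 0.12).

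The genotype by PTZ45 interaction of Bdnf was -0.16 over Sal (SE 0.15, 95% interval -0.46 to 0.15) and -0.02 over PTZ0 (SE 0.15, 95% interval -0.32 to 0.27), with DESeq2 adjusted p of 1.0 in both. The intervals allow a response in CBP-ifKO that is smaller than, equal to or larger than that of controls. For Fos the same interaction over Sal was -3.18 (SE 0.52, adjusted p = 7.5e-07), where 0.329% of genes were called (0.423% over PTZ0). The remaining members showed no called response in either genotype, and the only one whose unadjusted DESeq2 value passed 0.05 was Ntrk3 in Control over PTZ0. Its log2 fold change there was 0.17 (SE 0.07, DESeq2 unadjusted p = 0.019, adjusted p = 0.41). Without Control PTZ45 replicate 2 it passed the threshold (0.25, adjusted p = 0.014), in a fit where Control PTZ45 is a single library assumed to vary like the 3 PTZ0 libraries. Over Sal, the log2 fold changes of Ntrk2 were 0.08 in Control (95% interval -0.06 to 0.23) and 0.00 in CBP-ifKO (-0.15 to 0.15), those of Sort1 0.01 (-0.14 to 0.15) and 0.04 (-0.13 to 0.20). Those of Ntrk3 were 0.13 (-0.05 to 0.30) and -0.04 (-0.26 to 0.18), and those of Ntf3 -0.01 (-0.59 to 0.57) and 0.02 (-0.65 to 0.68). The intervals of Ngfr were wider, from -1.70 to 0.65 in Control.

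**Figure D4:**
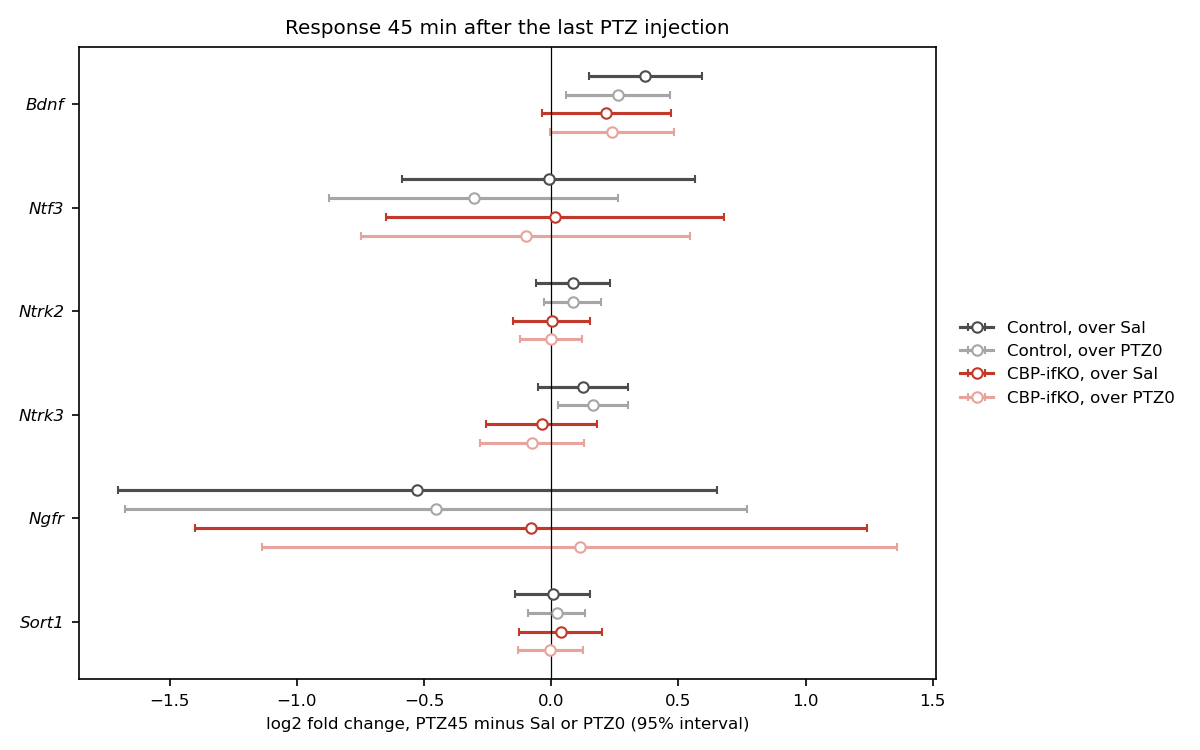
Log2 fold change of the 6 genes in PTZ45 over Sal or PTZ0, by genotype, with 95% intervals. No point is filled, since none was called, and the 4 Bdnf points lie between 0.22 and 0.37 with intervals that overlap one another.

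The kindling schedule without a final dose of PTZ left no called change in these genes. Bdnf in Control PTZ0 (570 to 602) lay above Control Sal (535 to 557), both run in lane 3, without overlap (3.7% of genes were higher in PTZ0 in this way) and with a log2 fold change of 0.11 (SE 0.09, 95% interval -0.07 to 0.28). In CBP-ifKO it was -0.02 (SE 0.13, 95% interval -0.28 to 0.24). No member was called by DESeq2 or edgeR, and none had an unadjusted DESeq2 p under 0.05 (lowest 0.22), where 3 genes in Control and 4 in CBP-ifKO were (0.00843% and 0.0112%), and the log2 fold changes of the members other than Bdnf lay between -0.19 and 0.29.

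Beyond the 6 members, 64 genes of the same pathway were examined in lists by role. Over all treatments 61 had an adjusted p in DESeq2, of which 16 were called lower and 3 higher in CBP-ifKO, 31.1% against 19.3% of all genes tested. Their median log2 fold change was -0.05, beside 0.01 for all genes. In the sortilin family, Sorcs3 (803 and 637 normalized counts on average in Control and CBP-ifKO, log2 fold change -0.34, SE 0.04) and Sorcs1 (-0.29, SE 0.08) were lower together with Sort1, while Sorcs2 and Sorl1 were not called. Sorcs3 was also called lower in PTZ0 (-0.32) and PTZ45 (-0.39). These receptors sort cargo such as Trk receptors within neurons.

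Among genes for processing and secretion, 3 of 10 tested were lower and none higher. Plat, which encodes tissue plasminogen activator, the protease that starts the plasmin cascade cleaving pro-BDNF, fell in each treatment and over all treatments (-0.52, SE 0.06). Its controls held 467 to 599 normalized counts and its CBP-ifKO libraries 321 to 435, without overlap (2.16% of all genes tested were lower in this way). Pcsk5, a proprotein convertase gene (-0.31, SE 0.06), and Serpini1, which encodes neuroserpin, an inhibitor of tissue plasminogen activator (-0.18, SE 0.05), were lower as well.

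In Trk signalling 7 of 23 genes were called lower and 1 higher (34.8% called, against 19.3% of all genes tested). Shc3, a neuronal adaptor that binds phosphorylated Trk receptors, fell from 756 to 881 normalized counts in controls to 574 to 647 in CBP-ifKO (-0.43, SE 0.04) and was called in each treatment. Under the replicate block its folds were close to these (-0.38 in Sal and -0.47 in PTZ45), and the calls ended (adjusted p = 0.22 and 0.68). Map2k1, which encodes the kinase MEK1, was lower over all treatments (-0.29, SE 0.05), in Sal (-0.34) and in PTZ0 (-0.32). At similar folds, its call in Sal ended in edgeR (-0.33, adjusted p = 0.16), with the filter of 10 counts in 2 libraries (-0.34, adjusted p = 0.052) and under the replicate block (-0.35, adjusted p = 0.17). Mapk3, the gene of the kinase ERK1 (-0.24, SE 0.05), the adaptor gene Grb2 (-0.21, SE 0.04) and Pik3r1, a regulatory subunit of PI3 kinase (-0.20, SE 0.04), were also lower. The adaptor gene Crk was higher by 0.08 (SE 0.03, adjusted p = 0.049), a call that ended in most alternatives.

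Of 9 partners of p75, Lingo1, a co-receptor (-0.25, SE 0.05), and Maged1 (-0.12, SE 0.04) were lower and Zfp110 was higher (0.29, SE 0.06). Of 14 factors known to act on Bdnf promoters, Rest, which encodes a repressor of neuronal genes, was higher over all treatments (0.46, SE 0.09) and in PTZ45 (0.68, SE 0.19), with 136 to 190 normalized counts in controls and 195 to 294 in CBP-ifKO. Arnt2, whose product pairs with Npas4, was lower (-0.22, SE 0.04). Over all treatments, each pathway gene named so far was not called with lane as a term, where 135 genes in all and, in these lists, Bdnf and Npas4 were. In that fit Sorcs1 (-0.13) and Mapk3 (-0.15) were over 1.5 times smaller and Rest (0.81) over 1.5 times larger, and the other folds moved less, among them Plat (-0.61), Sorcs3 (-0.40) and Shc3 (-0.41). Within single treatments, the calls of Shc3 and Map2k1 in PTZ0 and of Npas4 in PTZ45 held in every alternative and that of Plat in Sal in all but the replicate block (adjusted p = 0.057), while each of the others ended when at least 1 library was left out. Without the 5 libraries with high choroid plexus markers, Serpini1, Crk, Maged1 and Npas4 were not called over all treatments (DESeq2 adjusted p = 0.058 to 0.48). The folds of Serpini1 (-0.16), Crk (0.096) and Npas4 (-1.795) stayed close to those with all 17 libraries, and that of Maged1 shrank to -0.06.

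**Figure D5:**
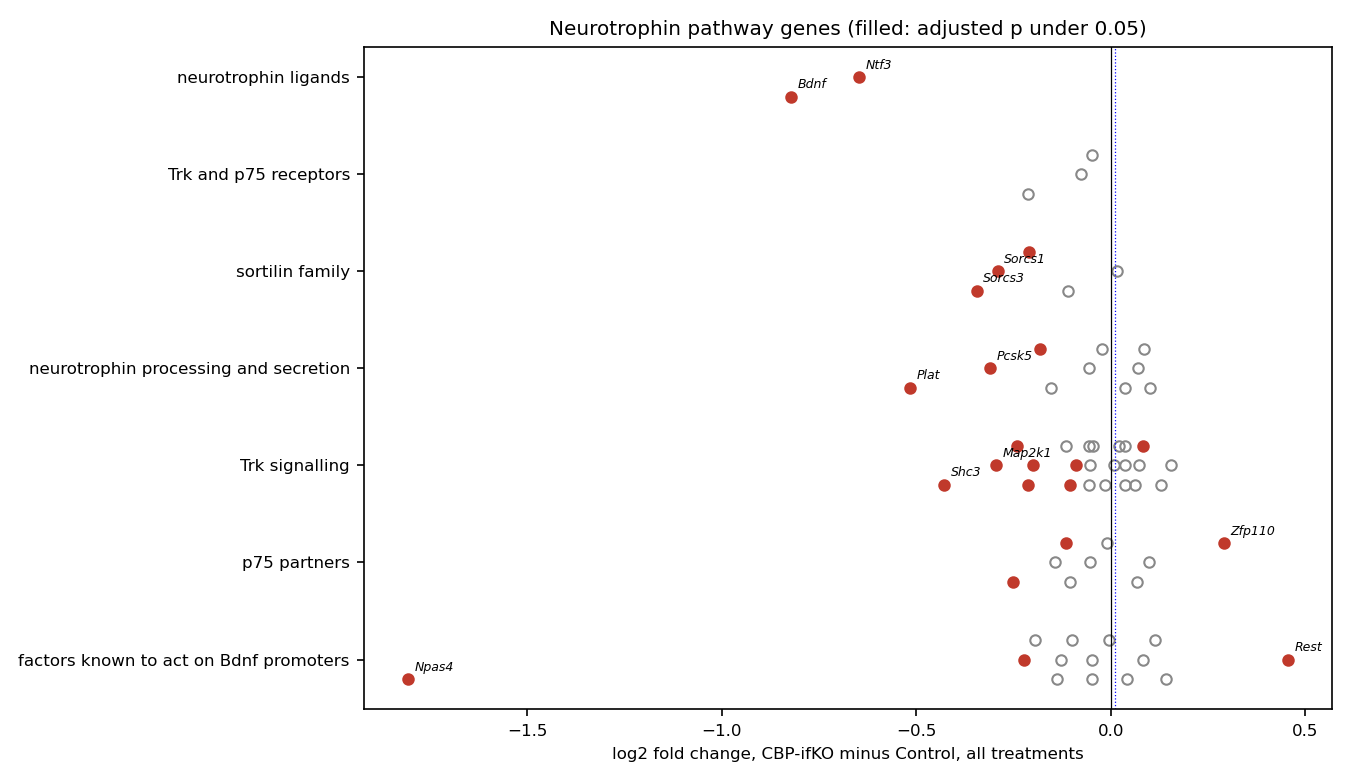
Log2 fold change over all treatments, CBP-ifKO minus Control, of the members and other pathway genes, by list, with filled red points called by DESeq2 and open points not called. The dotted line is the median of all genes tested (0.01). Npas4 lies far to the left at -1.81 and most called points lie below 0.

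Npas4 was the factor with the clearest acute response. It stood at 3946 and 3293 normalized counts in Control PTZ45 against 28.1 to 75.9 in the other controls, and at 109, 154 and 212 in CBP-ifKO PTZ45 against 11.5 to 42.6 in the other CBP-ifKO libraries. The log2 fold change over Sal was 6.16 (SE 0.50) in Control and 2.28 (SE 0.28) in CBP-ifKO, and their difference was -3.88 (SE 0.57, DESeq2 adjusted p = 8.1e-09). Over PTZ0 it was 2.51 (SE 0.55, adjusted p = 0.010) in CBP-ifKO, a call that ended under the replicate block (2.63, adjusted p = 0.14) and without CBP-ifKO PTZ0 replicate 3 (2.57, adjusted p = 0.27) or PTZ45 replicate 2 (2.53, adjusted p = 0.28). In the single-genotype comparisons over Sal or PTZ0 it was the only pathway gene called. In the fits over both genotypes, Cpe, whose product sorts pro-BDNF to the regulated pathway (0.22, SE 0.06), and the transcription factor gene Mef2a (0.16, SE 0.05) were higher over Sal, and Bhlhe40, also a transcription factor gene (0.26, SE 0.08), over PTZ0. Map2k2, which encodes MEK2, was lower over both (-0.33, SE 0.08, and -0.28, SE 0.08), the Trk adaptor gene Frs3 over Sal (-0.50, SE 0.13) and the Nogo receptor gene Rtn4r over PTZ0 (-0.32, SE 0.09). With the GC trend removed, Mef2a (0.10), Map2k2 (-0.11 over Sal and PTZ0), Frs3 (-0.265) and Rtn4r (-0.12) had smaller folds and were not called. Without the 5 libraries with high choroid plexus markers none of these 6 was called. Their folds stayed close (Cpe 0.23, Mef2a 0.19, Map2k2 -0.33 and -0.27, Frs3 -0.45, Rtn4r -0.35, Bhlhe40 0.30). In edgeR the calls of Cpe (0.21), Mef2a (0.16), Rtn4r (-0.32), Bhlhe40 (0.26) and Map2k2 over PTZ0 (-0.285) ended at similar folds.

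The genes whose levels most resembled each member over the 17 libraries were ranked by Pearson's r of log2(normalized count + 1) among 13040 genes averaging 50 or more (13041 for Ngfr). These libraries share lanes and genotype steps, so the coefficients are descriptive. Nptx2 (r = 0.959), Efr3a (0.959) and Sema3e (0.957) were most like Bdnf, and Prss35 (0.940), Arhgef3 (0.913) and Efna3 (0.898) most like Ntf3. For Sort1 they were Nell2 (0.963), Ap2b1 (0.960) and Ndrg3 (0.959), for Ntrk2 Nav3 (0.928), Ptprt (0.919) and Supt6 (0.908), and for Ntrk3 Amer2 (0.941), Zmat3 (0.940) and Cd47 (0.937). For Ngfr they were Fhad1 (0.882), Kank1 (0.865) and Ppp1r1b (0.861). Between members, r was 0.840 for Bdnf with Sort1, 0.715 for Bdnf with Ntf3, 0.634 for Bdnf with its receptor gene Ntrk2 and -0.262 for Ntf3 with its receptor gene Ntrk3.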

How the data were processed

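Hippocampal RNA of 17 mice was sequenced as single-end 50-base reads. Per the labels and the study's methods, the authors checked reads with FastQC 0.11.8, trimmed them with Trim Galore 0.6.4, aligned them to GRCm38 with STAR 2.6.1, kept mapping qualities above 10 and deposited raw counts per gene from Rsubread on Ensembl 99 exons. The deposited table also gives a gene length, the unit of the per-kilobase values. Strand use is not given in the sources used here, so antisense overlaps cannot be separated. Of 18 count columns, 1 matched no sample and was not used. By its name it looks like a further Control PTZ45 library, and that group has only 2 here. Symbols came from GENCODE M21 (99.6% of identifiers matched) and promoter windows from RefSeq on GRCm38.p6.

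The main test, after the study's methods, was the two-sided Wald test of DESeq2 1.42.0 in R 4.3.3 on the libraries compared, for genes with at least 1 count, with Benjamini-Hochberg adjustment over all genes after independent filtering. The genotype over all treatments had treatment as a term. Intervals are 95% Wald intervals. The members were given, and the gene lists chosen, with earlier results of these data known. The text names the members, Crebbp, Fos, Npas4, pathway genes called (at most 5 per list and direction) and the 3 genes most like each member. Some genes of the lists are not reported here. Marker genes were named after their values had been seen. Alternatives were edgeR 4.0.16 quasi-likelihood, TMM size factors, a filter of 10 counts in 2 libraries, 1 fit of all 17 libraries, the replicate number as a block, removal of the GC trend (loess, span 0.5), lane as a term and leaving out each library. The fits over both genotypes, and leaving out 5 libraries with high choroid plexus markers (summed above 5000), were added after the data had been seen. Pairs of replicates differed by more than counting noise (chi-square per degree of freedom 2.31 to 18.0), so none was treated as a copy. The fits were tested on simulated data.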

Additional observations from a re-analysis of the deposited data

How the results depend on the processing

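Over all alternatives, the log2 fold changes of the members in the genotype comparisons, and of Bdnf in the others, kept their direction and side of the threshold in 454 values, lost the call in 22, gained it in 9 and changed sign in 13, all of them in differences that were not called. Bdnf kept its call in every genotype comparison. In Sal 1 member was called, and 2 (Bdnf and Sort1) in 1 fit of all 17 libraries and with the GC trend removed, while leave-one-out fits gave 1 to 2 (2 without CBP-ifKO Sal replicate 3 only). In PTZ0 2 were called, and 1 in edgeR, in 1 fit of all 17 libraries and at the low end of the leave-one-out fits (1 to 2). Over all treatments 3 were called, 1 with lane as a term and 3 to 4 in leave-one-out fits. For PTZ45 over Sal in Control 0 were called, and 1 (Bdnf) in edgeR and in 1 fit of all 17 libraries. For PTZ45 over PTZ0 in Control 0 were called, and 0 to 1 (Ntrk3, without Control PTZ45 replicate 2, which leaves that group 1 library and the spread to PTZ0) in leave-one-out fits. In the fit over both genotypes, the 1 call over Sal (Bdnf) was 0 with the GC trend removed and 0 without the choroid plexus libraries. The 1 call over PTZ0 was 0 in edgeR, under the replicate block, with the GC trend removed and without the choroid plexus libraries, and 0 to 1 in leave-one-out fits. Leave-one-out log2 fold changes crossed 0 for Ntrk3 in Sal (-0.094 to 0.036) and PTZ0 (-0.011 to 0.12), Ngfr in PTZ45 (-0.53 to 0.40), Bdnf in PTZ0 over Sal in CBP-ifKO (-0.078 to 0.047) and the Bdnf interaction over PTZ0 (-0.093 to 0.039). That interaction was 0.0049 under the replicate block and 0.027 with the GC trend removed, and Ngfr over all treatments was 0.28 with lane as a term. The cause of these shifts was not tested.

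Same-numbered replicates did not deviate together (15 of 40 pairs with r over 0.1, median -0.06, against 33 of 80 other pairs, median 0.03), so the numbers do not pair the mice. Under the replicate block the Bdnf call over PTZ0 in both genotypes was lost (0.24, adjusted p = 0.10 in DESeq2), as were those of Plat in Sal (0.057) and PTZ45 (0.43), Sorcs3 in PTZ0 (0.059) and PTZ45 (0.9998), Shc3 in Sal (0.22) and PTZ45 (0.68), Rest in PTZ45 (0.73), Map2k1 in Sal (0.17) Mapk3, Pcsk5, Pik3r1 and Lingo1 in PTZ0, Crk over all treatments, Npas4 over PTZ0 in CBP-ifKO (0.14), and Frs3 (0.066), Mef2a (0.12) and Rtn4r (0.066) in both genotypes. Folds under the block were close to those reported (Plat -0.53 and -0.63, Sorcs3 -0.32 and -0.38, Rest 0.74). Over all treatments 3606 genes were called, 1870 without the choroid plexus libraries and 135 with lane as a term. Counts of called genes moved over 1.5 times elsewhere too, between 122 and 620 in Sal (306 reported), 327 and 974 in PTZ0 (852), 102 and 785 in PTZ45 (468), 73 and 243 for Control PTZ45 over Sal (204), 94 and 499 over PTZ0 (225), 4 and 92 for CBP-ifKO over Sal (58), 8 and 28 over PTZ0 (23), 38 and 73 for the interaction over Sal (69) and 50 and 80 over PTZ0 (82). For PTZ0 over Sal they lay between 0 and 20 in Control (3) and 0 and 6 in CBP-ifKO (4), and for both genotypes between 126 and 894 over Sal (613) and 91 and 472 over PTZ0 (295). The 25 other named genes changed sign in none of 1055 values and lost the call in 191. Ranks per kilobase were the same with TMM-scaled CPM. Of the 3 genes most like a member, Spearman's rho kept 2 for Ntf3, 1 each for Ngfr and Sort1 and 0 for Bdnf, Ntrk2 and Ntrk3. Depth limits Ngfr and Ntf5, and the small groups limit every acute test. Lane as a term could not be fitted within single treatments or in the fits over both genotypes.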
